A study of Mus musculus with 45 samples.

Results

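The genes described here are the 100 mouse protein-coding genes whose transcript level was higher by the largest factor, in both the inner cell mass (ICM) of the E4.5 blastocyst and naive embryonic stem cells kept in 2i/LIF (2iES), after the transcription factor GABPA had been degraded. They were chosen from the data. Of 55385 annotated genes, 21903 were protein-coding, and 7750 of these had a mean of at least 2 FPKM (a fragment count scaled to transcript length and library size) in the dTAG13 libraries of both ICM and 2iES cells. For each of the 7750, the mean dTAG13 level plus 0.1 FPKM was divided by the mean control level plus 0.1 FPKM at each of the 2 stages, and the 100 genes with the largest value of the smaller ratio were kept. The higher levels in ICM and 2iES cells are therefore what chose the genes, and they are given below as a description without a test. The late 2-cell (L2C) embryos and the morulae were not used in the choice, and there the effect of dTAG13 and the difference between the controls of these 2 stages were tested.

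All RNA libraries came from embryos or ES cells homozygous for a Gabpa-dTAG allele, in which the endogenous GABPA protein carries the FKBP12F36V tag, so the controls carry the tag too. The controls received DMSO and the others dTAG13, a small molecule that brings the tagged protein to a ubiquitin ligase for degradation. L2C embryos were exposed from 6 to 30 h post fertilization (hpf) at 1 μM, with 3 libraries in each arm. Morulae were exposed from 42 hpf at 1 μM and blastocysts from 84 to 100 hpf at 1 μM, with 2 libraries in each arm, and 2iES cells for 24 h at 0.5 μM, with 2 libraries in each arm. Embryos came from in vitro fertilization and were grown in KSOM medium. The ICM was separated from the trophectoderm by immunosurgery, so that each ICM library pools epiblast (EPI) and primitive endoderm (PrE) cells. The ES cells derive from the E14 line, and the tagged lines were picked as single clones. The study calls the libraries of a group biological replicates, but the labels do not say whether they came from separate litters or cultures, and the p-values measure only the spread between these libraries.

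GABPA is an ETS family transcription factor that binds the sequence CCGGAAG and close variants of it, often just upstream of genes used in every cell, such as those for ribosomal, mitochondrial and RNA-processing proteins. A group of the genes below is known for another regulator, the tumour suppressor p53, which is held low by the ubiquitin ligase Mdm2 and, when stabilized, switches on inhibitors of the cell cycle, death receptors and repair factors. p53 binds a pair of 10-base half-sites, each with the core CNNG.

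Library size ranged from 20449966 to 23718870 counts at L2C, 9457933 to 12382705 counts in morulae, 18266057 to 20818291 counts in ICM and 20146785 to 27660132 counts in 2iES cells. The mRNA of *Gabpa* was not lower with dTAG13 at any stage, with 11.03 and 12.0 FPKM in the DMSO and 30.4 and 29.9 FPKM in the dTAG13 libraries of ICM, so that the transcript, upstream of the degraded protein, does not check the depletion. Defining markers of the labelled tissues were present. The controls had summed levels of 1433 to 2145 FPKM over 20 genes of the 2-cell stage at L2C and 240 to 289 FPKM in morulae. The ICM controls had summed levels of 1712 to 1734 FPKM over 17 EPI markers and 2551 to 2561 FPKM over 17 PrE markers, and the 2iES controls 1240 to 1356 and 220 to 259 FPKM. The sum over 19 trophectoderm (TE) markers was higher with dTAG13 in ICM, from 1604 to 1608 FPKM in the controls to 4068 to 4120 FPKM, and in 2iES cells, from 1594 to 1656 FPKM to 2878 to 2962 FPKM. The EPI sum was lower with dTAG13, at 985 to 993 FPKM in ICM and 959 to 1012 FPKM in 2iES cells. The PrE sum was higher in ICM, at 4566 to 4628 FPKM, and lower in 2iES cells, at 186 to 191 FPKM. A sum follows its most abundant genes, and gene by gene the 2iES cells read otherwise. By the edgeR thresholds given below, 3 of 13 tested PrE markers were higher and 0 lower there. The PrE markers at or above 1 FPKM numbered 5 in the 2iES controls and 7 with dTAG13. Of 15 tested TE markers, 3 were higher and 1 lower in 2iES cells. The median log2 changes were 0.365 for PrE and 0.13 for TE. In ICM the number of TE markers at or above 1 FPKM was 11 in the controls and 16 with dTAG13, with *Krt18* at 25.8 and 525 FPKM and *Cdx2* at 0.485 and 2.39 FPKM on average, while in 2iES cells it was 12 in both arms and mean *Cdx2* stayed at or under 0.13 FPKM. In bulk samples like these, fewer cells of a type and less RNA per cell cannot be told apart from the libraries alone. The study took the ICM at 100 hpf because its counts of EPI cells did not differ between the arms at that time. What these shifts contribute to the levels of the 100 genes was not tested. None of the 100 genes was among the TE, EPI or PrE markers.

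The ratio of dTAG13 to control level had a median of 4.42 in ICM, with a range of 3.16 to 184, and a median of 5.28 in 2iES cells, with a range of 3.18 to 554. It was larger in 2iES cells for 65 genes and larger in ICM for 35, and the 2 ratios lay within 1.5 times of each other for 53. All dTAG13 libraries were above all controls for 98 of the 100 genes in ICM and 96 in 2iES cells. Both shares follow from the choice, against 44.8% and 41.06% of genes with at least 1 FPKM in 1 arm. By edgeR with Benjamini-Hochberg adjustment, an adjusted p under 0.05, a change of at least 2-fold and 1 FPKM in 1 arm, 98 of 98 tested members were called higher in ICM, where 12.1% of all tested genes were called higher and 13.2% lower, and 96 of 98 in 2iES cells, where 12.4% were called higher and 15.6% lower. The choice used both contrasts, and nothing is read from these counts. The last genes kept were *Gm10718* at a smaller ratio of 3.17, *Tmtc3* at 3.17 and *Dzip1* at 3.16, and the first ones left out were *Hist1h2bc* at 3.11, *Hist2h3c2* at 3.09 and *Hivep3* at 3.08. In all, 320 of the 7750 genes had a smaller ratio of at least 2, so the list is the upper end of a longer slope.

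**Figure D1:**
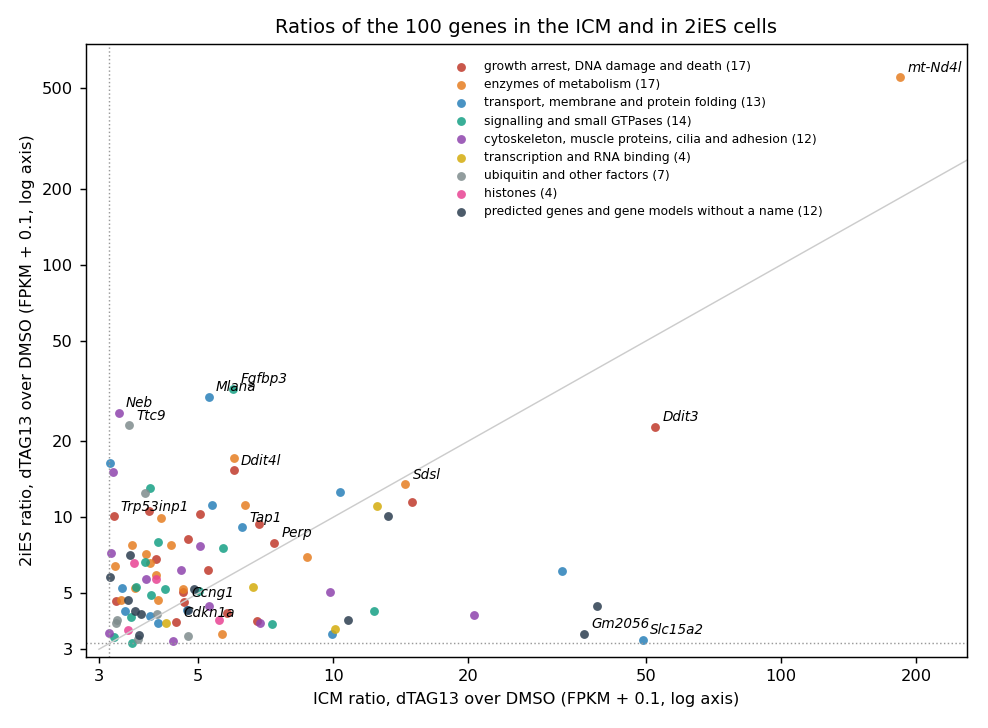
Ratio of mean dTAG13 to mean DMSO level (each plus 0.1 FPKM) of the 100 genes in ICM (x axis, log scale) and 2iES cells (y axis, log scale), 1 point a gene, coloured by known role, with the line of equal ratios and dotted lines at the smallest ratio kept. The points above the line are the 65 genes with the larger ratio in 2iES cells, such as *Neb* at 3.32 in ICM and 25.9 in 2iES cells, and *mt-Nd4l*, at 184 and 554, stands far from the rest.

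Without dTAG13 most members were expressed at low levels. Their median was 1.35 FPKM in ICM controls and 6.71 FPKM with dTAG13, and 1.67 and 9.21 FPKM in 2iES cells, where the other eligible genes had control medians of 23.7 and 17.5 FPKM. In the controls, 43 of the 100 lay under 1 FPKM in ICM and 35 in 2iES cells. As a share of all counts they took 0.083% in both ICM controls and 0.355% to 0.357% with dTAG13, and 0.0938% in both 2iES controls and 0.551% to 0.566% with dTAG13. A low control level makes a large ratio easier to reach, so part of this is fixed by the choice. The counts behind these values were a median of 238 per gene in ICM and 358 in 2iES cells with dTAG13, and 53.8 and 74.4 in the controls.

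By known role, 17 of the genes act in growth arrest, the DNA damage response or cell death, with a median ratio of 5.05 in ICM and 7.93 in 2iES cells. *Cdkn1a* encodes p21, the inhibitor of cyclin-dependent kinases through which p53 stops the cell cycle. Its level in ICM was 40.2 and 41.7 FPKM in the DMSO libraries and 182 and 185 FPKM in the dTAG13 libraries. In 2iES cells it was 146 and 142 FPKM with DMSO and 555 and 548 FPKM with dTAG13, the highest dTAG13 level of any member there. The arms stood apart at both stages, with replicates closer to each other than 5 FPKM in every ICM pair. *Cdkn2b*, which encodes the kinase inhibitor p15, was far lower, with 0.71 and 0.77 FPKM against 2.93 and 2.38 FPKM in ICM and 1.81 and 2.01 FPKM against 8.21 and 10.2 FPKM in 2iES cells.

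*Ccng1*, the gene of cyclin G1, had the closest ratios of the group, 4.64 in ICM and 4.60 in 2iES cells. It measured 31.8 and 30.04 FPKM with DMSO and 144 and 143 FPKM with dTAG13 in ICM, and 38.6 and 43.1 FPKM against 192 and 184 FPKM in 2iES cells. *Perp* encodes a membrane protein of desmosomes that also acts in p53-dependent death. It measured 4.33 and 4.34 FPKM against 33.8 and 31.4 FPKM in ICM, and 13.4 and 12.3 FPKM against 104 and 102 FPKM in 2iES cells, ratios of 7.38 and 7.93. *Btg2*, an antiproliferative cofactor of mRNA deadenylation, went from 6.05 and 5.33 FPKM to 22.5 and 24.0 FPKM in ICM and from 11.4 FPKM in both controls to 79.95 and 76.4 FPKM in 2iES cells. In none of these genes did the arms overlap.

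Several genes of this group had a larger ratio in 2iES cells than in ICM. *Ddit4l*, a relative of *Ddit4* that restrains mTORC1, measured 4.65 and 4.82 FPKM against 29.6 and 28.2 FPKM in ICM and 15.3 and 14.4 FPKM against 223 and 235 FPKM in 2iES cells, ratios of 6.00 and 15.3. *Plk2*, a polo-like kinase, measured 17.5 and 18.2 FPKM against 69.1 and 70.2 FPKM in ICM and 9.5 and 8.64 FPKM against 99.3 and 94.0 FPKM in 2iES cells. *Trp53inp1*, a p53-induced protein of the nucleus and of autophagy, had ratios of 3.24 in ICM and 10.1 in 2iES cells, where it went from 10.9 and 10.1 FPKM to 108 and 107 FPKM. The difference between stages is read from the values the choice used and was not tested. *Tnfrsf10b*, the mouse TRAIL death receptor, had similar ratios of 5.24 and 6.16, with 2.80 and 2.84 FPKM against 15.4 and 15.0 FPKM in ICM.

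The other genes of the group were mostly at lower levels. *Zfp365*, whose product takes part in the stability of stalled replication sites, measured 0.12 and 0.08 FPKM against 2.94 and 2.86 FPKM in ICM and 1.12 and 1.72 FPKM against 18.1 and 16.8 FPKM in 2iES cells. *Inka2*, an inhibitor of PAK kinases, measured 0.29 and 0.28 FPKM against 2.62 and 2.45 FPKM in ICM. *Map3k20*, the kinase ZAK that responds to stalled ribosomes, went from 2.34 and 1.93 FPKM to 11.9 and 10.5 FPKM in ICM and from 2.79 and 3.20 FPKM to 29.5 and 33.9 FPKM in 2iES cells. *Ptpn14*, a phosphatase that opposes YAP, had ratios of 4.74 and 8.19, and *Susd6*, a p53-induced membrane protein, 4.63 and 5.05. *Rnf169*, which binds ubiquitinated chromatin at DNA breaks, had ratios of 5.79 and 4.16, and *Cgref1*, a growth regulator, 6.75 and 3.89. The remaining entry carries the symbol *Ddit3* but is a second identifier for that gene (ENSMUSG00000116429.1) that stood on 2 and 1 reads in a single dTAG13 library of each stage. The usual *Ddit3* identifier, that of the stress factor CHOP, was not among the 100 and measured 42.5 and 43.9 FPKM against 93.6 and 95.1 FPKM in ICM. In 2iES cells this identifier measured 9.91 and 14.6 FPKM against 77.6 and 73.7 FPKM.

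**Figure D2:**
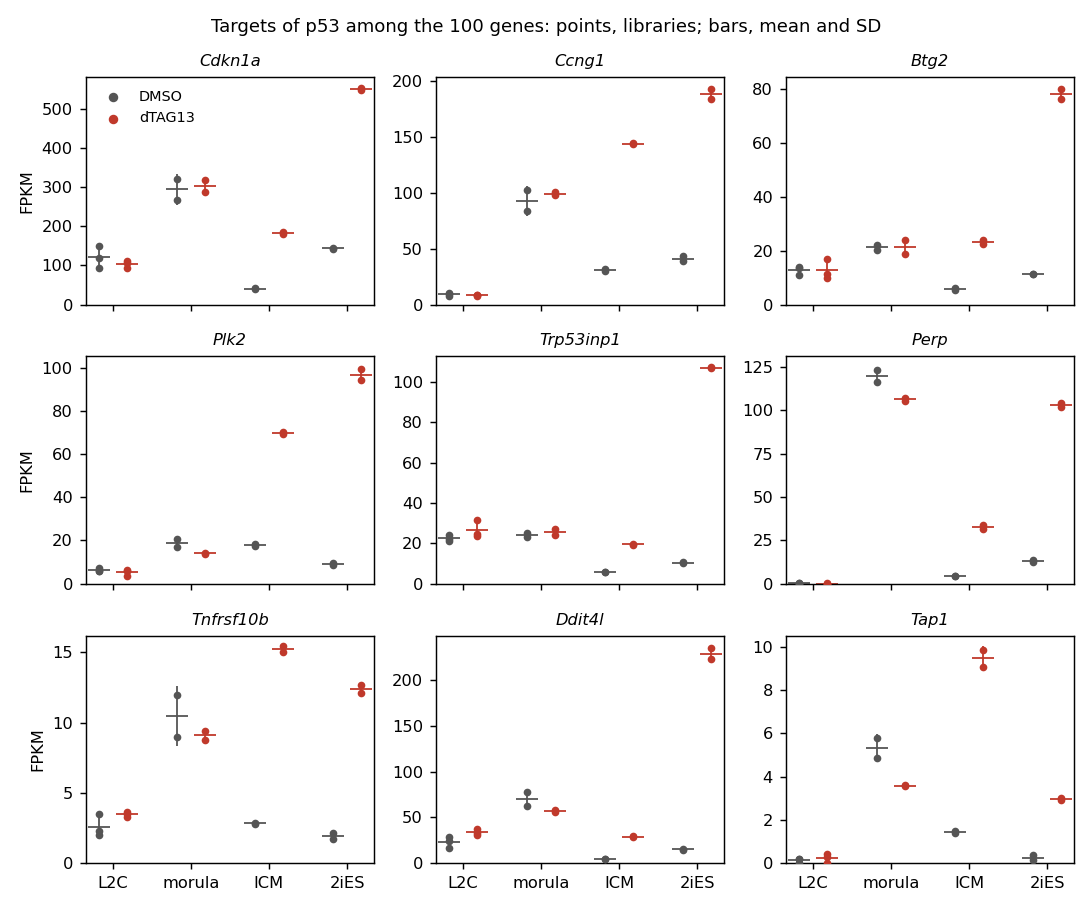
Level (FPKM, linear axes) of 9 p53 targets among the 100 genes at the 4 stages, with grey for DMSO and red for dTAG13, points for libraries and bars for the mean and SD. Grey and red points are apart in ICM and 2iES cells, the contrasts that chose the genes, and *Cdkn1a* lies at 322 and 267 FPKM with DMSO and 287 and 318 FPKM with dTAG13 in morulae.

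Of 58 listed p53 targets, 51 were eligible and 13 were members, namely *Cdkn1a*, *Ccng1*, *Btg2*, *Plk2*, *Perp*, *Trp53inp1*, *Tnfrsf10b*, *Ddit4l*, *Zfp365*, *Susd6*, *Inka2*, *Ptpn14* and *Tap1*. The list was drawn up with earlier results of these data known and is not independent evidence. Of the listed targets outside the 100, 18 were called higher and 1 lower of 42 tested in ICM, with a median log2 change of 0.72 against 0.01 over all tested genes. In 2iES cells 25 were called higher and 0 lower of 45, with a median log2 change of 1.24 against 0.03. The 1 lower gene was *Ddb2*, a sensor of ultraviolet damage, with a log2 change of -1.33 in ICM. *Mdm2*, the ligase and target of p53, measured 44.4 and 45.6 FPKM against 110 and 112 FPKM in ICM and 52.2 and 39.0 FPKM against 677 and 668 FPKM in 2iES cells. The mRNA of p53 itself (*Trp53*) was lower with dTAG13, with 105 and 107 FPKM against 38.2 and 33.3 FPKM in ICM and 91.1 and 100.0 FPKM against 60.3 and 60.8 FPKM in 2iES cells.

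Enzymes of metabolism also made up 17 of the 100, with median ratios of 4.12 in ICM and 6.96 in 2iES cells. *Sord*, sorbitol dehydrogenase, had the highest mean dTAG13 level of all members in ICM, with 54.0 and 52.2 FPKM against 211 and 204 FPKM. In 2iES cells it measured only 2.32 and 1.59 FPKM against 14.3 and 12.5 FPKM. *Gpx3*, a secreted glutathione peroxidase, measured 35.1 and 34.5 FPKM against 141 and 146 FPKM in ICM and 4.11 and 3.10 FPKM against 35.9 and 37.3 FPKM in 2iES cells. *Adh1*, an alcohol dehydrogenase, went from 5.23 and 4.57 FPKM to 45.9 and 41.2 FPKM in ICM and from 0.48 and 0.39 FPKM to 5.12 and 2.13 FPKM in 2iES cells. These 3 genes stood several times higher in ICM than in 2iES cells in either arm. They are the members on a list of redox genes, whose other genes were called higher and lower in 12 and 3 of 37 in ICM and in 7 and 3 of 38 in 2iES cells.

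Among the other enzymes were *Sdsl*, a relative of serine dehydratase, with ratios of 14.5 and 13.5, and *Plcd4*, a phospholipase C, with 5.99 and 17.2. *Lpin1*, a phosphatidate phosphatase, went from 1.25 and 1.39 FPKM to 5.52 and 5.12 FPKM in ICM and from 1.64 and 1.74 FPKM to 13.2 and 12.2 FPKM in 2iES cells. *Prps2*, which makes the sugar phosphate from which nucleotides are built, had ratios of 5.63 and 3.44, while the ratios of its library-scaled counts were 5.26 and 5.08. *Cpe*, a carboxypeptidase that trims peptide hormones, measured 12.5 and 12.2 FPKM against 51.4 and 49.5 FPKM in ICM. *mt-Nd4l*, a mitochondrial subunit of complex I, ranked first by the rule but was listed at 0 in both controls and in 1 of the dTAG13 libraries of each stage, with 36.6 FPKM in the other ICM library and 111 FPKM in the other 2iES library. Of its 31-base words 98.88% also occur in the gene *Gm10222*, which took 2044 and 1959 counts in ICM controls, so the assignment of reads between the 2 genes is uncertain. The 2iES control libraries also differ in mitochondrial transcripts, with *mt-Co1* at 349 FPKM in replicate 1 and 2187 FPKM in replicate 2.

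Transport, membrane and protein-folding genes numbered 13, with a median ratio of 5.27 at both stages. *Slc15a2*, a peptide transporter, was the most ICM-weighted member, with 0.76 and 0.59 FPKM against 37.9 and 38.0 FPKM in ICM and 0.28 and 0.82 FPKM against 2.06 and 1.99 FPKM in 2iES cells, where its library-scaled counts differed only by a ratio of 2.05. *Mlana*, a melanosome protein, leaned the other way, with 2.10 and 2.42 FPKM against 13.3 and 11.4 FPKM in ICM and 3.51 and 3.79 FPKM against 111 and 114 FPKM in 2iES cells. *Tmtc3*, an enzyme of protein O-mannosylation, measured 1.93 and 3.42 FPKM against 46.3 and 44.4 FPKM in 2iES cells. Its ICM ratio, 3.17, was near the limit of the list. *Tap1*, which pumps peptides into the endoplasmic reticulum for display on MHC class I, measured 1.38 and 1.48 FPKM against 9.09 and 9.87 FPKM in ICM and 0.35 and 0.12 FPKM against 2.92 and 3.00 FPKM in 2iES cells. The other 14 tested genes of antigen display were called higher in 1 and lower in 2 in ICM and higher in 1 and lower in 5 in 2iES cells. *Hba-a2*, an α-globin gene that shares most of its sequence with another copy, measured 0.53 and 1.10 FPKM against 9.05 and 9.67 FPKM in ICM and 0.28 and 0.77 FPKM against 7.58 and 7.91 FPKM in 2iES cells. Over the 11 erythroid markers, which include it, 6 to 7 were under 0.1 FPKM in the groups of these 2 stages. Their sum was 3.73 to 4.69 FPKM with DMSO and 18.75 to 20.17 FPKM with dTAG13 in ICM. In 2iES cells it was 2.27 to 2.32 FPKM and 11.65 to 12.47 FPKM. Of the 3 others tested, 2 were called higher and 0 lower in ICM, and 1 and 0 in 2iES cells. The copy *Hba-a1* measured 1.79 and 2.05 FPKM against 1.46 and 2.17 FPKM in ICM.

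Signalling genes and small GTPases numbered 14, with median ratios of 3.99 and 5.16. *Fgfbp3*, which carries fibroblast growth factors, had the largest 2iES ratio after *mt-Nd4l*, with 0.14 and 0.07 FPKM against 6.75 and 6.29 FPKM. *Zap70*, a tyrosine kinase best known from T cells, had ratios of 12.4 in ICM and 4.27 in 2iES cells, at no more than 3.29 FPKM. *Arhgap39*, a GTPase-activating protein, was the most abundant of the group in ICM, with 15.1 FPKM in both controls and 53.2 and 53.8 FPKM with dTAG13. The small GTPases *Rab21*, *Rap2a* and *Arl8a* had ICM ratios of 4.22, 3.93 and 3.25. *Twsg1*, a secreted BMP modulator, had ratios of 3.55 and 3.18.

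Cytoskeletal, muscle, ciliary and adhesion genes numbered 12, with median ratios of 4.48 and 5.38. *Cryab*, the small heat shock protein αB-crystallin, was the most abundant, with 25.1 and 23.7 FPKM against 113 and 111 FPKM in ICM and 36.1 and 44.7 FPKM against 254 and 248 FPKM in 2iES cells. *Neb*, which encodes the muscle protein nebulin, was the most 2iES-weighted, with 2.16 and 2.18 FPKM against 7.12 and 7.77 FPKM in ICM and 0.07 and 0.18 FPKM against 5.74 and 5.73 FPKM in 2iES cells. Part of its 2iES ratio of 25.9 came from the length RSEM assigned to it, 4380 bases in the controls and 1452 with dTAG13 on average, since the ratio of its library-scaled counts was 16.9. *Lrrfip1*, an actin- and nucleic acid-binding protein, had ratios of 3.19 and 7.21, and *Whrn*, a scaffold of hair-cell stereocilia, 3.22 and 15.1.

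*Crip2*, a LIM-domain protein, was among the most abundant members at both stages, with 39.7 and 39.1 FPKM against 164 and 155 FPKM in ICM and 99.3 and 78.4 FPKM against 355 and 381 FPKM in 2iES cells. *Ttc9*, a tetratricopeptide protein, measured 0.15 and 0.04 FPKM against 4.48 and 4.34 FPKM in 2iES cells, and its ICM ratio was 3.51. Transcription and RNA-binding factors were few, with 4 members and median ratios of 8.37 and 4.56. *Nkx2-9*, a homeobox gene of the ventral neural tube, measured 0.04 and 0.24 FPKM against 2.61 and 3.19 FPKM in ICM and 1.69 and 2.31 FPKM against 23.6 and 22.7 FPKM in 2iES cells. *Cebpb*, a bZIP factor of stress and inflammation, measured 1.3 and 0.86 FPKM against 10.9 and 12.7 FPKM in ICM. It was the only member on a list of genes under the stress factor ATF4, whose other genes were called higher in 2 and lower in 13 of 38 in ICM and higher in 3 and lower in 13 of 34 in 2iES cells.

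Histone genes contributed *Hist1h4a*, *Hist2h2aa1*, *Hist1h4f* and *Hist1h2bp*, with median ratios of 3.81 and 4.80. Their mRNAs normally lack a poly(A) tail. Of the other listed histone genes, 24 of 55 were called higher and 0 lower in ICM and 21 of 56 higher and 1 lower in 2iES cells. The last group comprised 12 predicted genes or unnamed models, with median ratios of 4.23 and 4.36. *1500009L16Rik*, of unknown function, was one of the most abundant members, with 38.7 and 41.2 FPKM against 142 and 140 FPKM in ICM and 54.8 and 46.8 FPKM against 354 and 365 FPKM in 2iES cells. Of 12 gene models listed as derived from repeats, 5 were members, *Gm10717*, *Gm10718*, *Gm10721*, *Gm10800* and *Gm10801*. *Gm10800* measured 88.6 and 36.04 FPKM against 316 and 215 FPKM in 2iES cells, with arms that do not overlap but replicates far apart. *Gm28044*, with ratios of 13.2 and 10.1, rested on a mean of 15.3 counts in ICM and 38.6 counts in 2iES cells with dTAG13. *Gm5662*, on a list of genes used at the 2-cell stage, measured 2.21 and 16.8 FPKM against 49.9 and 15.6 FPKM in 2iES cells, where the arms overlapped. *Gm2056* and *Gm6502*, the most ICM-weighted members after *Slc15a2*, had ICM ratios of 36.2 and 38.8 with at most 0.44 FPKM in the controls. In 2iES cells the arms of *Gm2056* overlapped, with 9.12 and 21.42 counts against 90.55 and 9.54 counts. *Gm6502* had 0 counts in both ICM controls, so that the added 0.1 FPKM alone is the divisor of its ratio there.

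Not every member is measured equally well. More than 50% of the 31-base words of 14 members occur in another gene, among them *Hba-a2*, 3 of the histone genes and most of the Gm models, and 12 members share over 10% of their exonic bases with another gene. As the libraries were unstranded, reads of *Cryab* and *Hspb2*, of *Cebpb* and *Tmem189* or of *Frs3* and *Frs3os* cannot be told apart where they overlap. For 11 members the ratio of FPKM and the ratio of library-scaled counts differ by more than 1.5 times, and 13 members had a mean of under 50 counts with dTAG13 at 1 stage or both. Within 100 kb of each other lay 6 pairs of members, mostly repeat-rich Gm models, but also *Dnajb4* and *Nexn* at 26.7 kb and *Mbnl2* and *Rap2a* at 46.7 kb.

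Whether the same genes respond at earlier stages was asked in the L2C embryos. None of the 77 members tested was called higher or lower, where 0.476% of all tested genes were called higher and 3.63% lower. Without adjustment, 8 members had a p under 0.05, all 8 with a positive change, and DESeq2 also called 0. The median log2 change of the 77 was 0.18, against 0.02 over all tested genes, and 51 changes were positive and 26 negative. For 61 of the 77 the upper 95% limit of the change lay under the smallest ratio of the list, 3.16. A change of 3.16 times was within the limits for the other 16. The upper limit lay under 2-fold for 43 of the 77. All dTAG13 libraries were above all controls for 15 of the 100 genes and below for 3. Among the 63 members with at least 1 FPKM in 1 arm these were 14 and 3, where 15.87% and 14.32% of all such genes were.

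The p53 targets among the members showed no call at L2C. *Cdkn1a* measured 118, 151 and 92.7 FPKM with DMSO and 111, 107 and 93.1 FPKM with dTAG13, overlapping arms with a fitted fold of 0.82 and a 95% interval of 0.635 to 1.06. *Ccng1* measured 8.00, 10.5 and 9.33 FPKM against 8.59, 7.37 and 8.96 FPKM. *Perp* was at or under 0.27 FPKM in all 6 libraries. Of the listed p53 targets outside the 100, 0 were called higher and 1 lower of 41, *Polk*, a DNA polymerase of lesion bypass, at a log2 change of -2.06. *Trp53* mRNA was lower in these embryos, with 21.9, 27.6 and 24.1 FPKM against 7.06, 5.29 and 7.21 FPKM.

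The L2C changes with an unadjusted p under 0.05 were in 5 of the 8 cases in genes that share sequence. *mt-Nd4l* measured 120, 110 and 79.6 FPKM against 167, 191 and 220 FPKM, a log2 change of 0.86 with an adjusted p of 0.0252 by edgeR that missed the 2-fold limit. *Gm10718* had a log2 change of 1.05 and an adjusted p of 0.0883. *Gm10717*, *Gm10721* and *Hist1h2bp*, which also share most of their sequence, were not called either, with log2 changes of 0.92, 0.85 and 2.01. The fitted fold of *Hist1h2bp*, 4.02 with an interval of 1.13 to 14.3, lay above the smallest ratio of the list. It rested on 5.87, 7.44 and 9.72 counts with DMSO and 26.6, 6.38 and 70.3 counts with dTAG13. *Dnajb4*, an HSP40 co-chaperone, measured 15.8, 11.7 and 12.8 FPKM against 17.4, 22.2 and 18.4 FPKM, arms that do not overlap, with an adjusted p of 0.0929. *Afg1l*, a mitochondrial ATPase, measured 3.13, 2.56 and 3.92 FPKM against 4.58, 5.80 and 6.24 FPKM, with an adjusted p of 0.0935. *Prr15l* was the eighth. Over the 66 tested members with at most 50% of shared words, the median log2 change was 0.09. The summed level of 12 oocyte markers, transcripts that the embryo inherits, was also higher in these dTAG13 libraries, at 1878 to 2217 FPKM against 1495 to 1533 FPKM, and its part in the small shift of the members was not tested.

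In morulae none of the 84 members tested was called either, where 0.154% of all genes were called higher and 0.198% lower. The median log2 change was -0.03, against -0.02 over all genes, with 37 positive and 47 negative changes. Without adjustment, 5 members were higher and 1 was lower at a p under 0.05, and DESeq2 called 1, *Gm5662*. The upper 95% limit lay under 3.16 for 74 of the 84 and under 2-fold for 54. All dTAG13 libraries were above all controls for 11 members and below for 19. Among the 75 members with at least 1 FPKM in 1 arm these were 7 and 18, where 17.68% and 27.68% of all such genes were.

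Of the 17 growth arrest and death genes, 13 had their highest control level in morulae. The choice favoured low control levels in ICM and 2iES cells, which partly fixes this count. In morulae 0 of the 16 tested were called. *Cdkn1a* measured 322 and 267 FPKM with DMSO and 287 and 318 FPKM with dTAG13, a fitted fold of 1.07 with a 95% interval of 0.803 to 1.44. *Perp* measured 123 and 117 FPKM against 107 and 106 FPKM, with dTAG13 just below DMSO, a fold of 0.93 with an interval of 0.705 to 1.23, and *Ccng1* 83.4 and 102 FPKM against 98.2 and 100.4 FPKM. Of the other listed p53 targets, 0 of 41 were called in either direction. *Gm5662* came nearest to a call, with 3.78 and 6.34 FPKM against 12.0 and 15.4 FPKM, a log2 change of 1.49 and an adjusted p of 0.0537 by edgeR. *Dnajb4* measured 0.66 and 0.68 FPKM against 1.90 and 1.83 FPKM with an adjusted p of 0.151, and *Pla2g16*, a phospholipase, 24.5 and 20.4 FPKM against 39.4 and 30.7 FPKM with 0.159. *Nrcam*, a neuronal adhesion protein, was the lower one, with 2.32 and 1.35 FPKM against 0.29 and 0.34 FPKM.

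**Figure D3:**
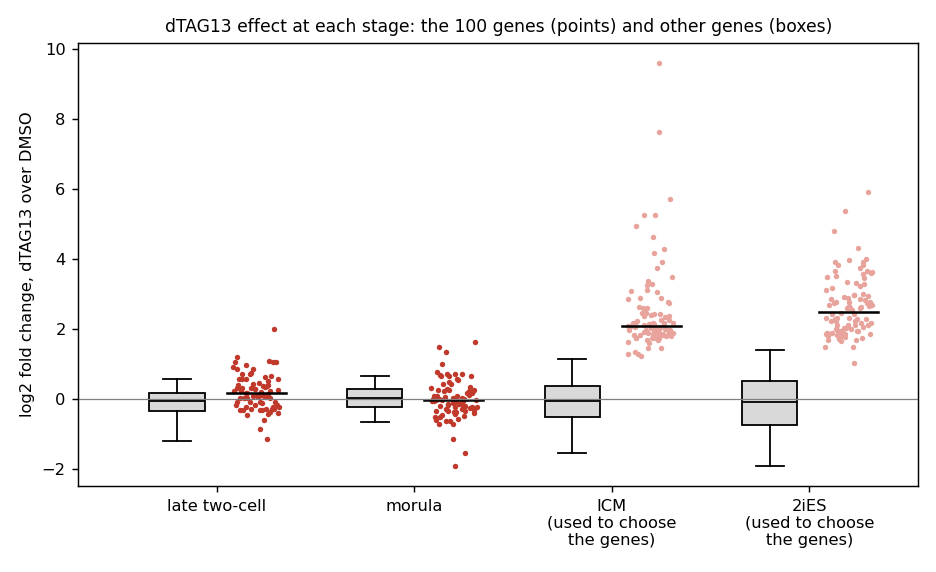
Fitted log2 fold change of dTAG13 over DMSO at each stage, with a point for each tested member and its median as a bar, beside boxes for the other eligible genes (median, quartiles, and whiskers from the 5th to the 95th percentile). Members centre on 0.18 at L2C and -0.03 in morulae, near the boxes, and on 2.10 in ICM and 2.50 in 2iES cells, where the choice put them.

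The control levels give the course of the genes over the 4 stages without dTAG13. The highest of the 4 control means was in morulae for 45 members, against 17.31% of the other eligible genes, in L2C embryos for 32 against 30.21%, in 2iES cells for 13 against 22.33% and in ICM for 10 against 30.16%. The low shares in ICM and 2iES controls are partly fixed by the choice, and so the high share in morulae is too. The counts by position that follow are also partly fixed by it, and no share over other genes was taken for them. The control morula level lay above the dTAG13 level of ICM for 27 members, between the ICM control and dTAG13 levels for 42 and at or under the ICM control level for 31. Against 2iES cells the same counts were 13, 53 and 34. For 27 members, then, the level with dTAG13 in ICM was still under that of an untreated morula.

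Between control morulae and control L2C embryos, stages the choice did not use, 42 of 92 tested members (45.652%) were called higher in morulae and 24 (26.087%) lower, where 24.3% and 29.9% of all tested genes were. Over the other eligible genes the shares were 33.149% and 24.314%. The median log2 difference of the members was 1.06, against 0.23 for the other eligible and -0.37 for all tested genes. Growth arrest and death genes lay on the higher side, with 12 of 15 tested called higher and 0 lower, and 9 of the 12 tested p53 targets were higher. The p53 targets outside the 100 were called higher in 24 and lower in 5 of 43. The morula libraries are the shallowest of the series, and all L2C controls were deeper than them.

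*Ccng1* was 8.00 to 10.5 FPKM in L2C and 83.4 and 102 FPKM in morula controls, a log2 difference of 3.39 ± 0.18 (SE) with an edgeR adjusted p of 1.2e-07. *Crip2* went from 8.02 to 8.11 FPKM to 338 and 515 FPKM, a log2 difference of 5.81 ± 0.21. *Sord*, *Tnfrsf10b* and *Cdkn1a* were higher by log2 differences of 2.85 ± 0.166, 2.36 ± 0.320 and 1.296 ± 0.205. *Perp*, *Cryab* and *1500009L16Rik* were at most 0.59 FPKM in every L2C control and at least 108 FPKM in both morula controls, so that they are given as levels without a fold. In all of these the controls of the 2 stages do not overlap.

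The 24 members called lower in morulae than at L2C include the genes that follow. *Nexn*, which encodes the actin-binding protein nexilin, measured 629, 519 and 607 FPKM in L2C controls and 10.5 and 4.10 FPKM in morula controls, a log2 difference of -6.27 ± 0.21. *Klhl8*, a BTB-Kelch adaptor of ubiquitin ligases, measured 36.4, 26.2 and 47.1 FPKM against 0.64 and 0.73 FPKM, and *Gm5662* 164, 143 and 278 FPKM against 3.78 and 6.34 FPKM. *Hba-a2* had 150 to 181 FPKM at L2C and 2.97 and 5.89 FPKM in morulae. *Gpx3* measured 34.1, 26.6 and 29.1 FPKM at L2C, 3.28 and 6.8 FPKM in morulae and again 35.1 and 34.5 FPKM in ICM controls. *Nexn* stayed far under its L2C level in ICM and 2iES cells with dTAG13, at no more than 5.41 FPKM.

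**Figure D4:**
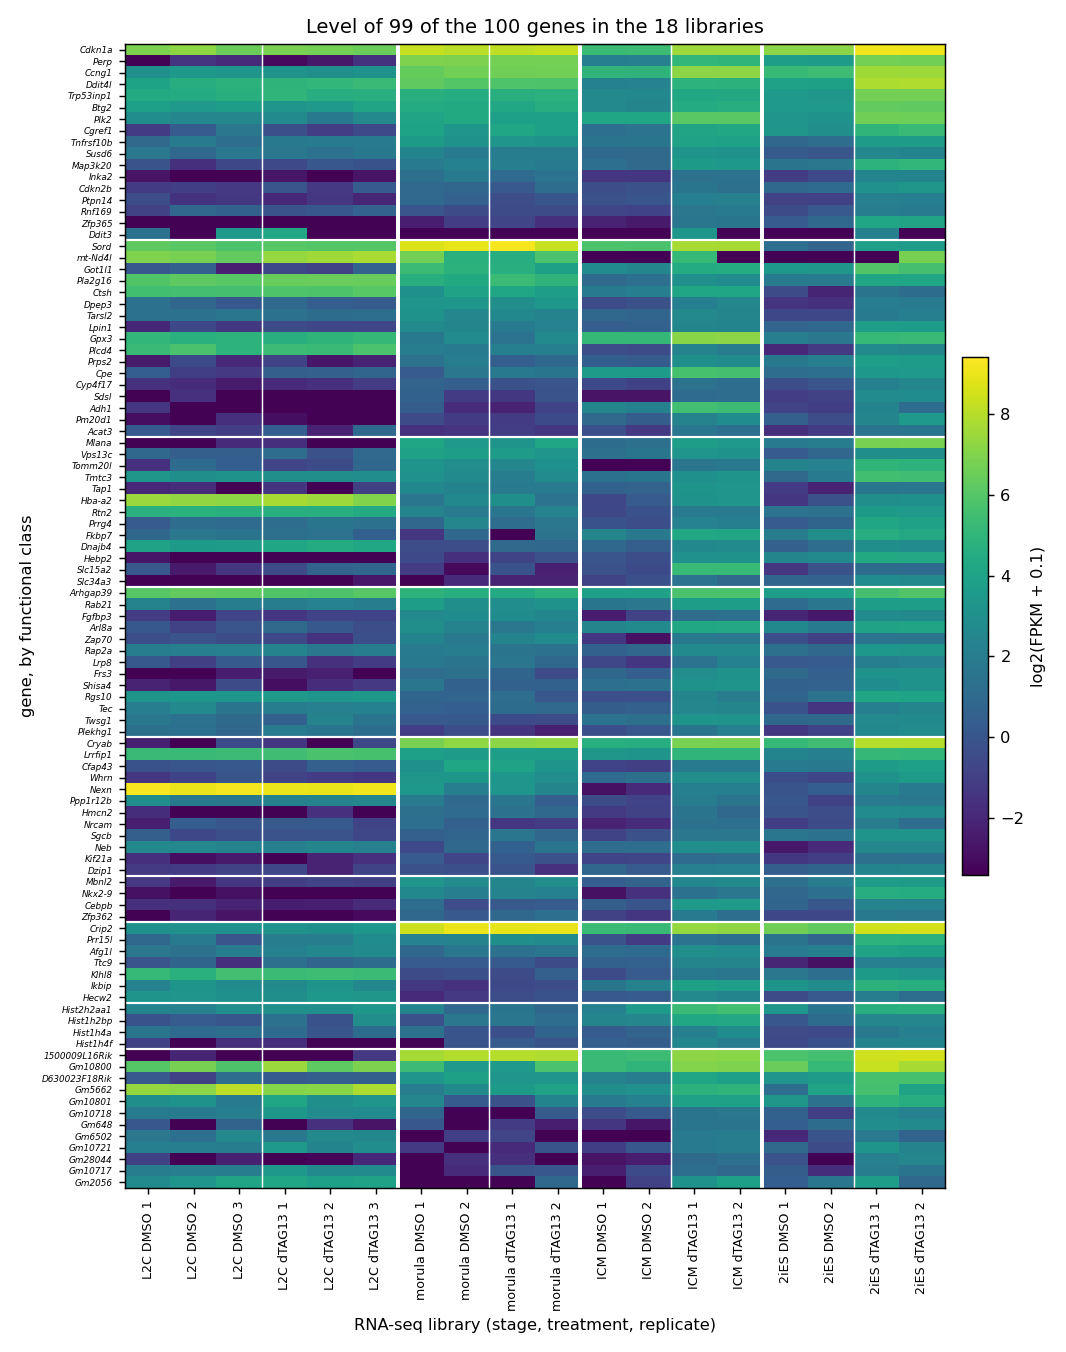
Level of 99 of the 100 genes (rows, grouped by known role) in the 18 libraries (columns, by stage, treatment and replicate), coloured by log2(FPKM + 0.1), with brighter colours for higher levels. Nearly all rows are brighter in the dTAG13 columns than in the DMSO columns of ICM and 2iES cells, *Perp*, *Cryab* and *1500009L16Rik* are dark at L2C and bright in morulae, and *Nexn*, at 519 to 629 FPKM in L2C controls, is brightest at L2C.

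The study drew gene lists for the parts of the blastocyst from published data of untreated embryos. Of the 524 eligible ICM genes, 5 were members (*Cpe*, *1500009L16Rik*, *Prps2*, *Plk2* and *Gm5662*), where 6.784% of the other eligible genes are on that list. Of the 511 eligible TE genes, 10 were members (*Lrrfip1*, *Perp*, *Susd6*, *Crip2*, *Rab21*, *Sord*, *Adh1*, *Cryab*, *Slc15a2* and *Mbnl2*), against 6.549% of the other eligible genes. *Ctsh*, a lysosomal protease, and *Ptpn14* were among the PrE genes, and 0 among the EPI genes. These are 17 of the 100. The summed TE markers also stood higher with dTAG13 in ICM and 2iES cells, as given above. In 2iES cells 3 of the 15 tested were called higher and 1 lower. The part of the TE markers in the levels of these 10 genes was not tested.

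Promoter sequence was compared as a description, using the RefSeq promoter windows of GRCm38.p6, from 250 bases before to 50 after each transcript start. Only 70 of the 100 members matched an entry, with 86 promoters, under the 80% a check of the whole list would need, so the check is void for the 100 and the shares hold for the matched genes alone. The GABPA core CCGGAAG, searched on both strands, was in 4.65% of the 86 promoters, in 20.42% of 7913 promoters of other eligible genes, in 56.12% of 98 promoters of the 100 genes with the largest decrease in both stages, and in 8.86% of all 32851 promoters. The p53 half-site, searched on both strands by its consensus, was in 11.63%, 6.81%, 3.06% and 8.36% of them. The letters TATAAA on the coding strand were in 9.3%, 4.46%, 3.06% and 8.32%, and the GC box GGGCGG in 65.12%, 64.38%, 46.94% and 35.66%. The median GC content was 61.0% for the members and 60.67% for the other eligible genes. A match is not a bound site, and its absence from the window says nothing of sites elsewhere.

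Among the matched members, 10 genes had a half-site match in a promoter. The promoters of the 4 that are listed p53 targets are shown with the match in capitals, 5′ to 3′ along the gene. They are shown since these genes belong to the growth arrest group above. The other genes with a match, such as *Zap70*, *Hecw2* and *Sgcb*, are not on the p53 list. The listed targets *Btg2*, *Plk2*, *Susd6*, *Ptpn14*, *Tap1* and *Zfp365* had windows but no match. *Cdkn1a* and *Inka2* each have a further window without a match. *Cdkn1a* (chr17:29090729-29091028, plus strand) has matches starting 73 and 51 bases before the start, *Ccng1* (chr11:40755237-40755536, minus strand) 185 before, *Ddit4l* (chr3:137623422-137623721, plus strand) 90 before and *Inka2* (chr3:105705208-105705507, plus strand) 81 before.
Cdkn1a: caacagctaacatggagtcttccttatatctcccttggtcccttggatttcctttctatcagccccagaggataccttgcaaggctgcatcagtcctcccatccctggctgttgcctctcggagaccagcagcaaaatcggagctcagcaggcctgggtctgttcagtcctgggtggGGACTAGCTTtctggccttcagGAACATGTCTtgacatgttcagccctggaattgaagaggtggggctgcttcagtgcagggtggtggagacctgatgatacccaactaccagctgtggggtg
Ccng1: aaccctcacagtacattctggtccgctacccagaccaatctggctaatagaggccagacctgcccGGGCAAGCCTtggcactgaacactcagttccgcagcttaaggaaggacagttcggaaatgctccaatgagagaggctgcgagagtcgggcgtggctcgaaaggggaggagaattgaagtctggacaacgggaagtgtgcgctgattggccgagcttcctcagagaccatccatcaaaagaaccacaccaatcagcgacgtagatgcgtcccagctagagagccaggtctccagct
Ddit4l: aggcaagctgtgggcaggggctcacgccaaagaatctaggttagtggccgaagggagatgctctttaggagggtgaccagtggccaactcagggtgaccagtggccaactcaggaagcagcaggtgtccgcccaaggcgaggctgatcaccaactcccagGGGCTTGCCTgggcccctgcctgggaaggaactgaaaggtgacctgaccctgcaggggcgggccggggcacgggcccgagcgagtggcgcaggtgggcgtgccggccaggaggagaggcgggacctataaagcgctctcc
Inka2: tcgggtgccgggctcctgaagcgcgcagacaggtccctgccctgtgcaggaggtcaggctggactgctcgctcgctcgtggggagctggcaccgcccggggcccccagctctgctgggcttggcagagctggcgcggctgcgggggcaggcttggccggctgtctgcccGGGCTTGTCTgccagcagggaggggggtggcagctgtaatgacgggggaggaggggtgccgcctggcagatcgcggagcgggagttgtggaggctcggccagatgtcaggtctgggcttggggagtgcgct
In each, a single match or a pair of separate matches stands in the window, and a half-site with a mismatch to the consensus is not marked.

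Of the 4 members with the GABPA core in a promoter, *Afg1l*, *Ddit3*, *Nkx2-9* and *Ttc9*, the windows of *Nkx2-9* (chr12:56613235-56613534, minus strand) and *Afg1l* (chr10:42478516-42478815, minus strand) are shown with the core in capitals, since in these 2 it lies closest to the start. The *Ddit3* entry was matched by the symbol that its 2 identifiers share. In *Nkx2-9* it starts 29 bases before the start and reads CTTCCGG, the other strand of the core, and in *Afg1l* it starts 2 bases before. The *Nkx2-9* window also holds a p53 half-site match, not marked, that starts 24 bases before the start and overlaps the core.
Nkx2-9: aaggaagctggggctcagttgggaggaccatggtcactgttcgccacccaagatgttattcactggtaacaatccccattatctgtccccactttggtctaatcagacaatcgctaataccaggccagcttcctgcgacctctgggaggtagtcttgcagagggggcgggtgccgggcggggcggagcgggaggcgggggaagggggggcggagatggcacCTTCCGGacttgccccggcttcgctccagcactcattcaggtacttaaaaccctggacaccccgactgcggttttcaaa
Afg1l: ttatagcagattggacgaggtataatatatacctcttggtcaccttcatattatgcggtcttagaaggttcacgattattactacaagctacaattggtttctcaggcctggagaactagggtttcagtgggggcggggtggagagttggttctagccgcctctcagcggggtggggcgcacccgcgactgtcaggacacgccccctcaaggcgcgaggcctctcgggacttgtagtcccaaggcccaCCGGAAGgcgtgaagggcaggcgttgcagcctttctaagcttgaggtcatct
Both genes had higher mRNA with dTAG13 in ICM and 2iES cells, with ratios of 12.5 and 11.1 for *Nkx2-9* and 3.27 and 3.81 for *Afg1l*, whereas in L2C embryos *Nkx2-9* was at or under 0.04 FPKM in all 6 libraries.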

How the data were processed

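RNA was measured by SMART-Seq v4 libraries with paired 75 bp reads, unstranded, in 18 libraries. The authors trimmed reads with Trimmomatic 0.39, aligned them with STAR to GRCm38 and quantified genes with RSEM, and deposited for each library a table of expected counts, TPM and FPKM values per gene. The CUT&RUN and ATAC-seq samples were not analysed here.

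The deposited FPKM values chose the genes (pseudocount 0.1) and are printed as levels, and the deposited TPM values served as an alternative scale. The deposited expected counts were rounded and tested with edgeR 4.0.16 (quasi-likelihood, TMM scaling) in each stage separately, over genes with at least 10 counts in as many libraries as the smaller group has. A gene was called at a Benjamini-Hochberg adjusted p under 0.05, a change of at least 2-fold and a mean of at least 1 FPKM in 1 group. The ± of a log2 difference is its standard error. limma 3.58.1 and DESeq2 1.42.0 were also used, and scripts were tested on simulated data. Replicate numbers did not pair the samples.

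The members and gene lists were chosen with earlier results of these data known. Genes named are the 10 with the largest smaller ratio, the 5 most abundant at each stage with dTAG13, members on the lists, the 3 most weighted to each stage, those called at L2C or in morulae, and those at the limit of the list. Other genes are named by function and were chosen after their values were seen. Intervals of changes come from the fit and cover the spread between libraries only. 1 member is counted in all totals but not reported by name here.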

Additional observations from a re-analysis of the deposited data

Results flagged for a closer look

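*Gm5662* is the 1 member whose response to dTAG13 differed between morulae and L2C embryos by a test of the difference itself, and the difference was tested between no other stages. Its log2 change in morulae exceeded that in L2C embryos by 1.84, with an adjusted p of 0.0454 in an edgeR model with a stage-by-treatment term, over all genes of the model. Of 94 members tested in this way, 1 passed the adjusted p and 7 had an unadjusted p under 0.05, where 628 and 3012 of all 19860 genes did, so that both are smaller shares than over all genes. The gene measured 3.78 and 6.34 FPKM in control and 12.0 and 15.4 FPKM in dTAG13 morulae, and 164, 143 and 278 FPKM against 133, 141 and 227 FPKM at L2C. More than 50% of its 31-base words occur in other genes, so reads may be shared with related copies.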

How the results depend on the processing

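Of the 100 genes, 50 were kept with a minimum of 5 FPKM, 76 with a minimum of 1 FPKM, 80 with a pseudocount of 1 FPKM, 92 on the TPM scale, 88 on TMM-scaled counts and 91 when each dTAG13 library had to reach 2 FPKM, a setting chosen after seeing the data. Leaving out each library in turn kept 87 to 96, and 27 were kept under every setting. No member was called at L2C, except 1 (*mt-Nd4l*) by the adjusted p alone and 0 to 1 on leaving out each library (*Prr15l* without DMSO replicate 2). In morulae 1 was called with library totals only (*Gm5662*), 1 without the count filter (*Gm5662*), 1 by DESeq2 (*Gm5662*) and 1 with all 18 libraries in 1 fit (*Dnajb4*). Leaving out each library gave 0 to 2 (*Ctsh* and *Gm5662* without DMSO replicate 2, *Gm5662* without dTAG13 replicate 1). With the replicate number as a block, 2 were called in morulae (*Dnajb4* and *Gm5662*), and the count over all genes went from 48 to 248. The block gave 0 members at L2C, 97 in 2iES cells and 63 between the control stages, where 66 were called without it. Same-numbered libraries correlated at 0.062 to 0.133 at L2C, 0.034 in morulae, -0.041 in ICM and -0.227 in 2iES cells, so they share a number only. With the 2iES numbers crossed, added after seeing the data, 98 were called. The count over all morula genes was 366 without DMSO replicate 2 and 111 by DESeq2. Upper-quartile scaling moved the median log2 change of all genes from 0.02 to 0.14 at L2C, 0.01 to 0.11 in ICM, 0.03 to 0.21 in 2iES cells and -0.37 to -0.22 between controls, and the 2iES calls over all genes from 1924 higher and 2415 lower to 2467 and 1994. Under every setting tried, 96 to 99 members were called higher in ICM, 94 to 99 in 2iES cells and 58 to 71 higher or lower between controls. The cause of these shifts was not tested. The median standard error of a member's log2 change was 0.33 at L2C and 0.371 in morulae, which limits what could be called.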
